A study of Mus musculus with 18 samples.

Results

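The 10 genes described here are expressed by macrophages and other leukocytes: the complement subunit genes C1qa, C1qb and C1qc, the surface protein genes Cd52, Csf1r, Mrc1, Ptprc and Fcgr3, the lysosomal gene Cd68 and the signalling adaptor gene Tyrobp. They were taken as all probe sets for which the platform annotation gives 1 symbol equal to one of these names, which found 15 of the 45101 probe sets on the array. Of the genes, 7 have 1 probe set, Ptprc has 2, and C1qb and Csf1r have 3 each. For each of the 18193 measured genes the brightest probe set stands for the gene, unless stated otherwise.

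RNA came from whole palate tissue of C57BL/6J mouse embryos at embryonic day 15.5, in 3 groups of 6 arrays: anterior palate of controls, posterior palate of controls, and posterior palate of mutants. Every embryo, controls included, carried the floxed receptor allele Tgfbr2 fl/fl, and the mutants also carried K14-Cre. The Cre recombinase is driven there by the keratin 14 promoter, which works in epithelium, so macrophages and mesenchyme are not expected to carry the deletion. The study asked how loss of TGF-beta reception in palatal epithelium acts on the neighbouring muscle. Sex was not determined, and no litter held both mutants and controls. The labels list 6 samples in each group, but the design text speaks of 5. Whether arrays share an embryo, or embryos were pooled, is not given, and the p-values therefore reflect only how much these samples vary, which may be technical.

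Tissue macrophages of the embryo arise from yolk sac and fetal liver precursors, settle in developing organs and clear dying cells. They depend on the receptor encoded by Csf1r, and the transcription factor PU.1, encoded by Spi1, switches on much of their gene programme. C1q, which they secrete, is built from 3 related chains encoded by C1qa, C1qb and C1qc, and it binds antibody complexes and dying cells and starts the classical complement cascade.

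Array-wide facts touch every result below. The mean log2 level of an array was 6.35 to 6.36 in mutant arrays 1 to 3 and 6.25 to 6.28 in all others. The median level was 5.87 to 5.90 in mutant arrays 1 to 3 and 5.73 to 5.79 in all others. The median SD between arrays over all genes was 0.152 for anterior controls, 0.128 for posterior controls and 0.233 for mutants. RNA added as a labelling control averaged 8.11 to 9.66 in anterior controls, 8.12 to 9.43 in posterior controls and 6.39 to 7.73 in mutants, so no mutant array reached the lowest control. Hybridisation controls averaged 11.1 to 11.7 in mutant arrays 1 to 3 and 10.4 to 10.5 in mutant arrays 4 to 6. Control arrays divided by the same numbers, the other way: hybridisation controls were 10.24 to 10.35 in arrays 1 to 3 of both regions and 10.61 to 10.88 in arrays 4 to 6, and labelling controls 8.11 to 8.30 and 9.05 to 9.66. Arrays 1 to 3 and 4 to 6 of each genotype are called the 4 sets of arrays below. They are not named by the labels, and genotype cannot be told apart from litter or from the labelling difference. Tgfbr2 itself gave 10.25 to 10.73 in control posterior and 10.63 to 11.39 in mutant arrays, a difference of 0.55 (SE 0.13, limma adjusted p = 0.00879). In whole tissue, where most cells keep the receptor, and with the position of its probes not examined, this value does not check the labels.

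The promoters of C1qb, C1qc and Mrc1 are shown. The first 2 are neighbours of which C1qb alone was called between genotypes. Among the genes with a matched promoter, Mrc1 holds the most copies of a motif bound by PU.1. RefSeq promoter windows of 300 bases (250 before to 50 after the start, GRCm38.p6) were matched for 6 of the 10 genes, in 8 windows. Each sequence gives the 250 bases before the start on the gene's strand, 5′ to 3′, with the core motif GAGGAA, or TTCCTC where it lies on the other strand, in capitals. C1qb lies at chr4:136886201-136886450 on the minus strand, C1qc at chr4:136892915-136893164 on the minus strand and Mrc1 at chr2:14229164-14229413 on the plus strand.
C1qb: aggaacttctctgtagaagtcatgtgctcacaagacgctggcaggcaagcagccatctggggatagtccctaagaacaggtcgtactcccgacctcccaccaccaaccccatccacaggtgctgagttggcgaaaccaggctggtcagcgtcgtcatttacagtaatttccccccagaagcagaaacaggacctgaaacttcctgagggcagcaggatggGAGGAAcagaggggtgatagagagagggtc
C1qc: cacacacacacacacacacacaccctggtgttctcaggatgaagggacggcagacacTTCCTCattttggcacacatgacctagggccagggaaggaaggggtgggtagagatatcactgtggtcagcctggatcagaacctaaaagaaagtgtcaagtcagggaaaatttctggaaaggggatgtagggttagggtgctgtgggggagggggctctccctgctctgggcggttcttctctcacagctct
Mrc1: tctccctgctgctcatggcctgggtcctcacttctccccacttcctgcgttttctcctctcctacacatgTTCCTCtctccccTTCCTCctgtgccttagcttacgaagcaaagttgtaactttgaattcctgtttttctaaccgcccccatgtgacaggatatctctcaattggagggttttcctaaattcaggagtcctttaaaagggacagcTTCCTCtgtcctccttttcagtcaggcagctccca
The motif begins 30 bases before the start in C1qb and 193 bases before it in C1qc, and Mrc1 has copies 180, 167 and 35 bases before its start. It occurs in all 6 matched genes, the others being Cd68, Ptprc and Fcgr3, and in 7 of their 8 windows. Of 32851 promoter windows of the same length, 28.3% hold it on either strand, as do 31.3% of the 27025 genes they belong to. A match is a stretch of letters, not evidence of binding. C1qa, Cd52, Csf1r and Tyrobp had no entry in the table.

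Across the 10 genes, posterior palate of mutants differed from posterior palate of controls in both directions. C1qb was 1.61-fold lower and Cd52 2.25-fold lower, Csf1r rose 1.44-fold, and 7 genes did not pass the test. A gene was called when the limma p, adjusted over all 18193 genes by the Benjamini-Hochberg method, was under 0.05. Called genes made up 13.5% of all genes in this comparison, 7.73% higher and 5.73% lower, beside 1 gene higher and 2 lower of these 10. Over all genes 1407 were higher and 1042 lower, which became 889 and 1423 after centring each array on its median, where Csf1r lost its call. C1qb and Cd52 were the 2 of the 10 without overlap between these groups, which 6.55% of all genes lacked. The median difference of the 10 genes was 0.13 on the log2 scale, beside 0.04 over all genes. In bulk tissue, fewer cells of a type and less RNA per cell cannot be told apart.

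**Figure D1:**
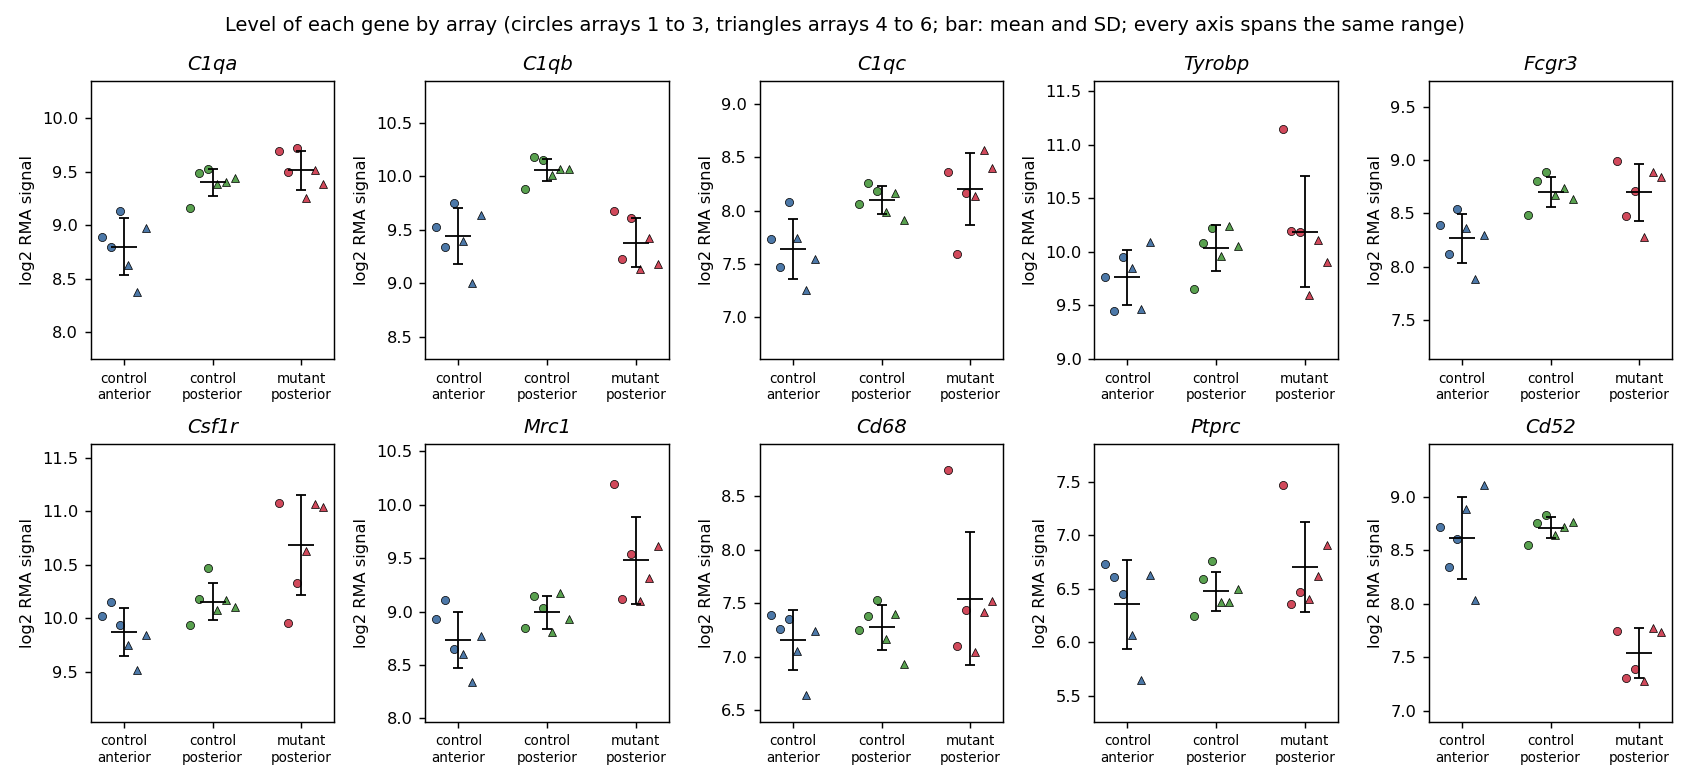
Deposited log2 level of the brightest probe set of each of the 10 genes (vertical axis) in every array, by group, with a point for each array and the group mean and SD marked. Cd52 and C1qb are the genes whose 6 mutant posterior arrays all lie below the 6 control posterior arrays, and C1qa and C1qb are those whose control posterior arrays all lie above the control anterior arrays.

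Of the 3 C1q genes, C1qb alone was called between genotypes, lower in mutants. C1qa read 8.38, 8.84 and 9.13 in control anterior arrays (lowest, median and highest log2 level), 9.16, 9.42 and 9.53 in control posterior arrays and 9.25, 9.51 and 9.72 in mutant posterior arrays. C1qb read 9.004, 9.46 and 9.75, then 9.88, 10.07 and 10.18, then 9.14, 9.33 and 9.67 in the same order of groups. C1qc read 7.26, 7.64 and 8.08, then 7.91, 8.12 and 8.26, then 7.59, 8.26 and 8.56. For C1qa and C1qc the mutant and control posterior arrays overlapped, while for C1qb every mutant array was below every control posterior array and all 6 overlapped the range of the anterior controls. The mutant minus control posterior difference was 0.11 for C1qa (95% interval -0.12 to 0.35, adjusted p = 0.553) and 0.11 for C1qc (-0.20 to 0.41, adjusted p = 0.677). For C1qb it was -0.68 (SE 0.12, limma adjusted p = 0.00134).

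A difference within an array leaves out whatever scales both genes alike. The C1qb level minus the C1qa level was 0.54 to 0.76 in control anterior arrays and 0.62 to 0.72 in control posterior arrays. In mutant posterior arrays it was -0.27 to -0.03, so that all 6 mutants lay apart from all 12 controls, with a mean shift of -0.80 from control posterior. The C1qc level minus the C1qa level overlapped in all groups, at -1.43 to -0.89, -1.52 to -1.09 and -1.91 to -0.96, with a mean shift of -0.01. These within-array values are descriptions without a test, and they show unequal change of probe sets, not which of them changed.

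All 3 probe sets of C1qb were lower in every mutant array than in every control posterior array, but by different amounts. The second by brightness averaged 9.82 in control posterior and 7.37 in mutant posterior arrays (difference -2.44, SE 0.39, limma adjusted p over all probe sets = 0.000846), where 10.7% of all probe sets were called. Its mutant arrays split into 6.07 to 6.77 for arrays 1 to 3 and 8.18 to 8.70 for arrays 4 to 6, the same sets that differ in hybridisation controls. The third differed by -0.77 (adjusted p = 0.000271), close to the brightest. Both carry the suffix x in their names, given to probe sets that hold probes able to match other sequences. The drop of C1qb by the brightest probe set was -0.56 within replicates 1 to 3 (adjusted p = 0.0591) and -0.80 within replicates 4 to 6 (adjusted p = 0.00932).

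**Figure D2:**
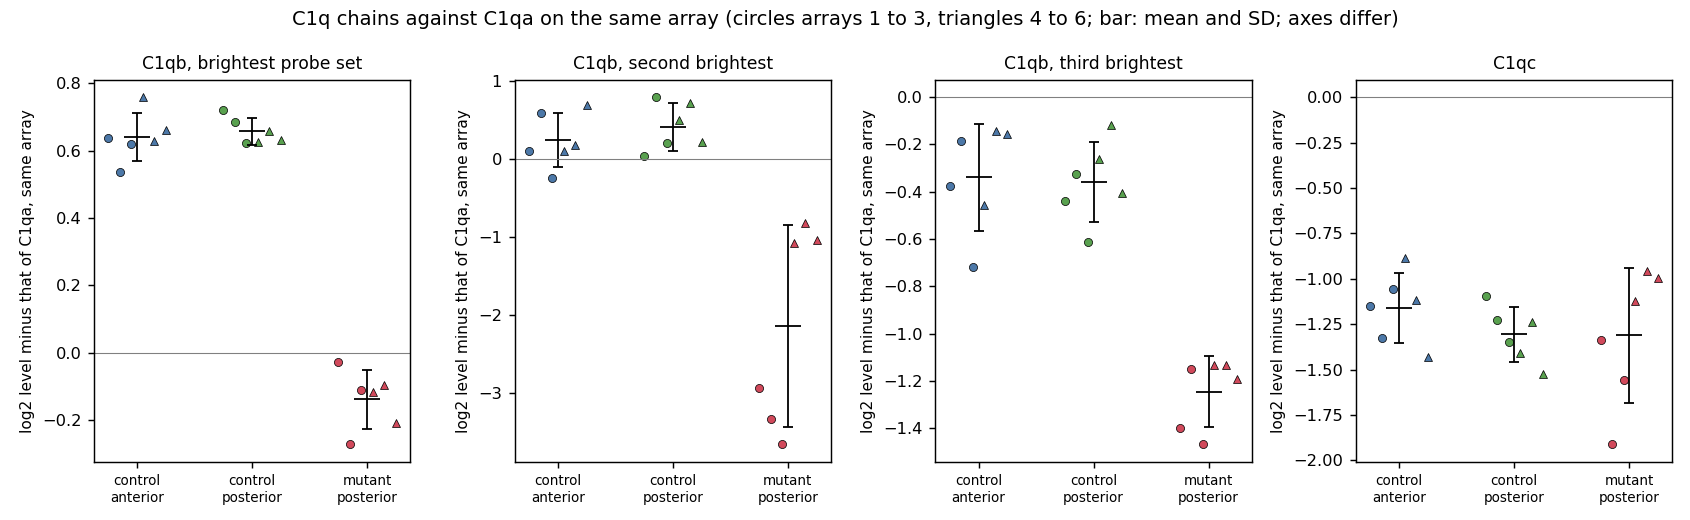
Level of each of the 3 C1qb probe sets, and of C1qc, minus the level of C1qa in the same array (vertical axes, log2 difference), with a point for each array in the 3 groups. For every C1qb probe set the 6 mutant posterior arrays lie below the 12 control arrays, between -0.27 and -0.03 for the brightest, while C1qc minus C1qa overlaps between all groups.

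By the brightest probe sets, Cd52 had the largest mutant difference of the 10 genes. By the mean of all probe sets C1qb had the larger, -1.299 beside -1.17. Cd52 encodes a short, heavily glycosylated surface peptide of lymphocytes and of some macrophages and monocytes. It read 8.04, 8.66 and 9.11 in anterior controls, 8.55, 8.74 and 8.83 in posterior controls and 7.28, 7.56 and 7.78 in mutants (lowest, median and highest). All 6 mutant arrays lay below all 12 control arrays. The difference from control posterior was -1.17 (SE 0.15, limma adjusted p = 9.61e-05), and it was -1.23 within replicates 1 to 3 (adjusted p = 0.00287) and -1.11 within replicates 4 to 6 (adjusted p = 0.0191).

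Cd52 was also low against the other leukocyte genes measured in the same array. Its level minus the mean level of the other 9 genes was -0.13 to 0.56 in anterior controls, -0.14 to 0.04 in posterior controls and -1.73 to -1.22 in mutants, without overlap between mutants and controls. Against Ptprc, the pan-leukocyte phosphatase gene also known as CD45, the within-array difference was 1.74 to 2.83, 2.07 to 2.34 and 0.28 to 1.16. Groups other than the mutants overlapped in both measures. Lymphoid marker genes gave no called gene of 9 measured, with 1 at an unadjusted limma p under 0.05, and 6 of the 9 in mutant and 7 in control posterior arrays were below the median probe set level of 5.79. Their part in the Cd52 result was not tested.

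Of the receptor genes, Csf1r was called higher in mutants. Csf1r, the receptor for the growth factors encoded by Csf1 and Il34, read 9.94, 10.13 and 10.47 in control posterior and 9.96, 10.83 and 11.08 in mutant posterior arrays. In 4 of the 6 mutant arrays it was above the highest control posterior array, and mutant arrays 2 and 3 lay inside the control range. The brightest probe set differed by 0.53 (SE 0.17, limma adjusted p = 0.0489), and the other 2 by 0.59 (adjusted p = 0.0111) and 0.47 (adjusted p = 0.0153) over all probe sets. The call of the brightest is at the threshold: it was lost in 13 of the 18 fits that leave out 1 array, with its highest adjusted p of 0.102 without mutant array 1. The 13 are those without control anterior 1, 3, 4 or 6, control posterior 1, 2, 4, 5 or 6, or mutant 1, 4, 5 or 6. Within replicates 1 to 3 the difference was 0.26 (adjusted p = 0.572), and within replicates 4 to 6 it was 0.79 (adjusted p = 0.00596). With replicate number as a block, its adjusted p was 0.0886.

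Mrc1 encodes the mannose receptor, an endocytic lectin of tissue macrophages. It read 8.81, 8.98 and 9.18 in control posterior and 9.10, 9.42 and 10.19 in mutant posterior arrays, with 4 mutant arrays above the highest control. Its difference of 0.49 (SE 0.16, 95% interval 0.15 to 0.82) gave an adjusted p of 0.0522, just past the threshold. It was called without control anterior array 2 or 5 and without mutant array 2 (0.56, adjusted p = 0.0297) or 4. Fcgr3, a low-affinity receptor for immunoglobulin G, read 8.49, 8.70 and 8.89 in control posterior and 8.28, 8.78 and 8.99 in mutant posterior arrays. The mutant Fcgr3 range enclosed the control range, and the difference was -0.01 (95% interval -0.26 to 0.25, adjusted p = 0.979).

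None of the remaining 3 genes passed the test, and in each the highest value belonged to mutant array 1. Cd68, a lysosomal glycoprotein gene of macrophages, read 6.93 to 7.53 in control posterior and 7.04 to 8.74 in mutant posterior arrays. Ptprc read 6.25 to 6.76 and 6.36 to 7.47. Tyrobp, whose product (DAP12) carries the signal of TREM2 and related receptors, read 9.65 to 10.24 and 9.60 to 11.15. In Ptprc mutant array 6, at 6.91, was also above the control posterior arrays, while in Cd68 and Tyrobp array 1 alone was. The differences were 0.27 (adjusted p = 0.463), 0.23 (adjusted p = 0.476) and 0.15 (adjusted p = 0.652). Without mutant array 1, Cd68 differed by 0.03 (adjusted p = 0.926), Ptprc by 0.08 (adjusted p = 0.819) and Tyrobp by -0.04 (adjusted p = 0.893).

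**Figure D3:**
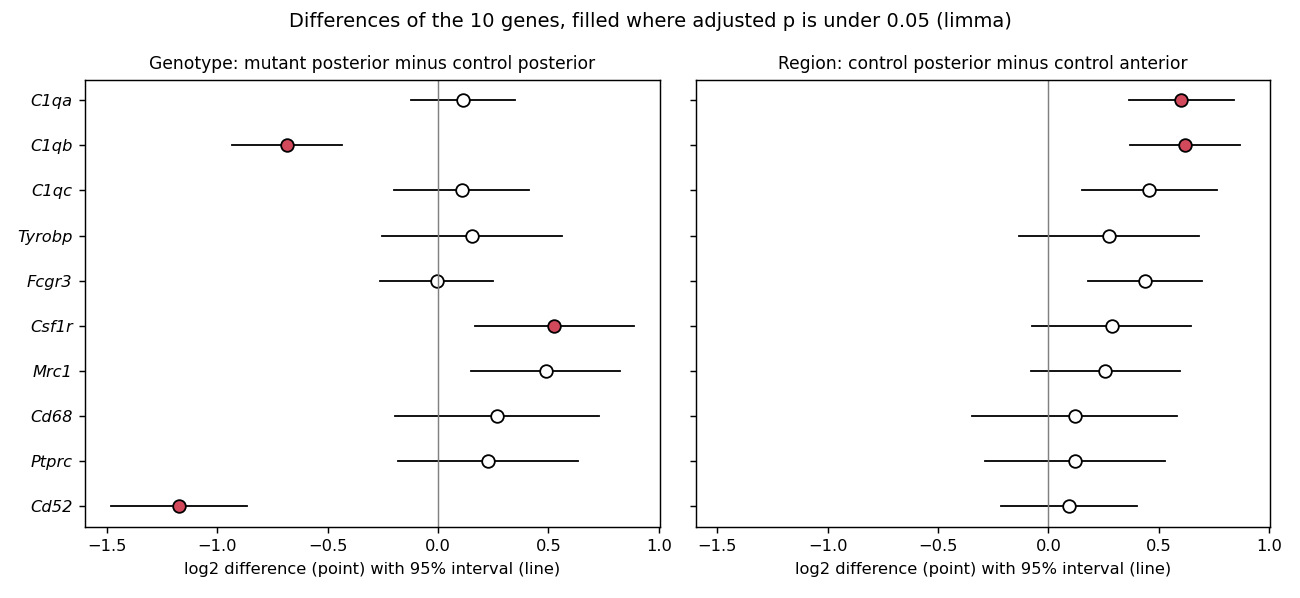
Differences in log2 level of the 10 genes (horizontal axis), mutant posterior minus control posterior and control posterior minus control anterior, with 95% intervals from the limma fit over all 18 arrays. Cd52 and C1qb lie left of 0 in the genotype comparison, and all 10 genes lie right of 0 in the region comparison.

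Between the 2 regions of control palate, C1qa and C1qb were higher in posterior tissue, by 1.52-fold and 1.54-fold. The difference was positive for all 10 genes, beside 8343 of all 18193, and its median was 0.28 beside -0.02 over all genes. The 10 genes varied together from array to array (median r 0.625), so their differences are not separate observations. Without control anterior array 5, Cd52 differed by -0.022 and Ptprc by -0.020, and within replicates 1 to 3 Ptprc differed by -0.061. Of the 10, 2 were called, both higher, where 3.82% of all genes were called, 1.7% higher and 2.12% lower. The differences were 0.60 for C1qa (SE 0.11, limma adjusted p = 0.0048) and 0.62 for C1qb (SE 0.12, adjusted p = 0.00523), and for both genes all 6 posterior arrays lay above all 6 anterior arrays, as 6.32% of all genes did in either direction. For C1qb, the second probe set gave a region difference of 0.77 (adjusted p = 0.347) and the third one of 0.58 (adjusted p = 0.00717), with 1.86% of all probe sets called. C1qc differed by 0.46 (adjusted p = 0.0902) and Fcgr3 by 0.44 (95% interval 0.18 to 0.69, adjusted p = 0.0556). Cd52 differed by 0.09 (95% interval -0.21 to 0.40, adjusted p = 0.774). Csf1r, Tyrobp and Mrc1 had differences of 0.29, 0.28 and 0.26, and Cd68 and Ptprc 0.12 each, with adjusted p from 0.371 to 0.816.

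The region values depend on how the samples are grouped. Within replicates 1 to 3 none of the 10 genes was called, where only 148 of all 18193 were. Of the 10, 2 had an unadjusted limma p under 0.05. C1qa differed there by 0.45 and C1qb by 0.53 (adjusted p = 0.283 and 0.280). Within replicates 4 to 6, where 220 of all genes were called, C1qa differed by 0.75 (adjusted p = 0.0460) and C1qb by 0.71 (adjusted p = 0.0588). C1qc and Fcgr3 were also called without control anterior array 3 (adjusted p = 0.0497 and 0.0459) or mutant array 2 (adjusted p = 0.0349 and 0.0499), which made 4 genes called. Fcgr3 was called as well without mutant array 1 (adjusted p = 0.0329) or 4 (adjusted p = 0.0335). Over all genes, leaving out 1 array gave 389 to 1213 region calls. Skeletal muscle genes, 10 of 10, were higher in posterior palate with a median difference of 3.75, and the part of this difference in tissue makeup in the leukocyte result was not tested.

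Set beside anterior control palate, mutant posterior palate had higher C1qa, Csf1r and Mrc1 and lower Cd52. C1qa was higher by 0.71 (limma adjusted p = 0.000233), C1qc by 0.56 (adjusted p = 0.0088), Csf1r by 0.81 (adjusted p = 0.00231), Mrc1 by 0.75 (adjusted p = 0.00272) and Fcgr3 by 0.43 (adjusted p = 0.0154). Cd52 was lower by the measured difference of -1.08 (adjusted p = 5.66e-05). C1qb differed by -0.06 by its brightest probe set (95% interval -0.31 to 0.18, adjusted p = 0.714), but by -0.64 (adjusted p = 0.00596) by the mean of its 3 probe sets, and in the second probe set 5 of the 6 mutant arrays lay below the lowest anterior control. With the 4 sets of arrays as a random block, 4 genes stayed called, and C1qc (limma adjusted p = 0.0662) and Fcgr3 (adjusted p = 0.112) did not. Called genes made up 27.2% of all genes in this comparison, beside 6 of these 10, 13.9% higher and 13.3% lower beside 5 and 1. That balance over all genes depended on the scaling, with 2521 higher and 2421 lower as deposited and 1626 and 3606 after centring each array on its median. No overlap between these groups was seen for C1qa, for Cd52 and for 9.83% of all genes. The comparison differs in region and genotype together and shares its arrays with both comparisons above.

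From a list of 30 other macrophage genes, 29 were measured. In the mutant comparison 7 were called higher and 2 lower, with a median of 0.19, where 7.73% of all genes were called higher and 5.73% lower. Stab1, a scavenger receptor gene, rose by 0.55 (SE 0.12, adjusted p = 0.00807), and F13a1, the coagulation factor XIII subunit A gene, by 0.87 (SE 0.20, adjusted p = 0.00959). Spi1, which encodes PU.1, read 6.40 to 6.70 in control posterior and 6.77 to 7.45 in mutant posterior arrays, without overlap (0.39, adjusted p = 0.0247). Cd14, a lipopolysaccharide co-receptor gene, rose by 0.41 (adjusted p = 0.0236), and Cd163, a haemoglobin scavenger receptor gene, by 0.59 (adjusted p = 0.0098) at levels of 2.95 to 4.21, below the median probe set. Cx3cr1 and Cybb made up the 7. Trem2, a lipid-sensing receptor that signals through the product of Tyrobp, read 6.90 to 7.30 in control posterior and 6.46 to 6.88 in mutant arrays and fell by 0.42 (adjusted p = 0.00434). Fcgr1, the high-affinity immunoglobulin G receptor gene, fell by 0.41 (adjusted p = 0.0313).

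The count was 6 higher and 2 lower, with a median of 0.08, without mutant array 1, 4 and 2 in a fit of the compared groups alone, and 4 and 3 after centring each array on its median. With the 4 sets of arrays as a random block none was called by limma, with 10 at an unadjusted p under 0.05. Over all 18193 genes, that fit called 588. Within replicates 1 to 3, 0 were higher and 2 lower, and within replicates 4 to 6, 5 were higher and 2 lower. Over all genes, those fits called 852 higher and 893 lower, then 1780 higher and 1565 lower. For region, Trem2 alone of the 29 was called, 0.38 higher in posterior palate (adjusted p = 0.0184). Of the 29 differences 26 were positive, with a median of 0.18, beside 8343 positive of all 18193 genes and a median of -0.02. The mean of the 29 genes was lowest in control anterior array 5, as was that of the 10, so their differences are not separate observations.

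The remaining gene lists show where the leukocyte genes stood among their pathways. Of 16 measured complement genes, Serping1, the C1 inhibitor gene, rose in mutants by 0.75 (adjusted p = 0.0466). C1ra, which encodes a protease that joins C1q in the C1 complex, and Clu, a chaperone gene, were lower in posterior than in anterior controls (-0.89, adjusted p = 0.0204, and -0.76, adjusted p = 0.0188), opposite in sign to C1qa and C1qb. Of 10 genes of the CSF1 axis, which share Spi1 with the macrophage list, Spi1 rose. Runx1 fell by 0.63 (adjusted p = 0.0149) and Cebpb by 0.40 (adjusted p = 0.0384), both transcription factors with roles in blood and myeloid cells, among others. In control posterior arrays Runx1 averaged 8.61 and Cebpb 10.68, beside 6.57 for Spi1. Which cells of the whole tissue gave the Runx1 and Cebpb signals was not tested. The ligand genes had differences of 0.41 for Csf1 (adjusted p = 0.118) and 0.25 for Il34 (adjusted p = 0.0883), and no gene of the axis was called for region, with 1 at an unadjusted limma p under 0.05.

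Of 14 measured genes of Fc receptor and DAP12 signalling, Plcg2, a phospholipase downstream of these receptors, rose by 0.32 (adjusted p = 0.0367), and the falling members were Trem2 and Fcgr1 again. Of 11 lysosomal genes, 4 rose in mutants: Psap by 0.37 (adjusted p = 0.00581), the protease gene Ctsd by 0.30 (adjusted p = 0.00964), Lamp1 by 0.23 and Ctsb by 0.22. Ctsd was also higher in posterior controls by 0.28 (adjusted p = 0.0288). These lysosomal genes are expressed by most cells. Of 10 scavenger and lectin receptor genes Stab1 was the called one in mutants, and for region none was called by limma, with 1 at an unadjusted p under 0.05.

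Markers of other cells were measured in the same arrays. Mast cell genes gave 1 called of 9, Tpsab1, which read 4.39 to 4.84 in control posterior and 5.83 to 9.46 in mutant arrays (2.68, adjusted p = 0.000983), and their mean level was 6.12 to 6.62 in control posterior and 6.47 to 8.24 in mutant arrays. Neutrophil genes gave 1 called of 10, Ltf (1.60, adjusted p = 0.0268), a gene that glandular epithelium also expresses. Erythroid genes gave 3 called of 10, with the embryonic globin genes Hbb-y (-2.93, adjusted p = 1.88e-06) and Hba-x (-1.40, adjusted p = 0.00848) lower and Ank1, also a muscle gene, higher (0.75, adjusted p = 0.0295). Endothelial and epithelial genes, 10 each, gave no call in mutants, with 2 of each at an unadjusted limma p under 0.05. Of the endothelial differences 9 were positive (median 0.20), and of the epithelial 9 were negative (median -0.45). Over all 18193 genes 10612 differences were positive, and 13.5% of the genes were called. Mesenchymal genes gave 3 higher of 10 (Dcn 0.88, Fn1 0.57 and Col1a2 0.47), with 9 differences positive. Muscle genes gave 1 higher, Ckm (2.36, adjusted p = 0.00986), with all 10 differences positive and a median of 0.71. The part of these lists in the results for the leukocyte genes was not tested.

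Within a group, the 10 genes varied together from array to array. Their deviations from the group means over the 18 arrays correlated positively in all 45 pairs of genes, with a median Pearson r of 0.625. The lowest was 0.26, between Csf1r and Tyrobp, and the highest 0.94, between C1qa and C1qb, a pair of which C1qb alone was called between genotypes. The points share RMA and each array's RNA, so these correlations are descriptions.

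Single arrays stood out in this joint variation. In mutant array 1 all 10 genes were above their group mean, by 0.52 on average, and in control anterior array 5 all 10 were below, by an average deviation of -0.45. Mutant array 1 also had the lowest mean of 10 epithelial genes, 9.52, where the other mutant arrays had 11.4 to 12.2. Its mast cell mean was 8.24, the highest of the 18 arrays. Without mutant array 1, C1qb differed by -0.74 (limma adjusted p = 0.000756) and Cd52 by -1.21 (adjusted p = 0.000121).

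**Figure D4:**
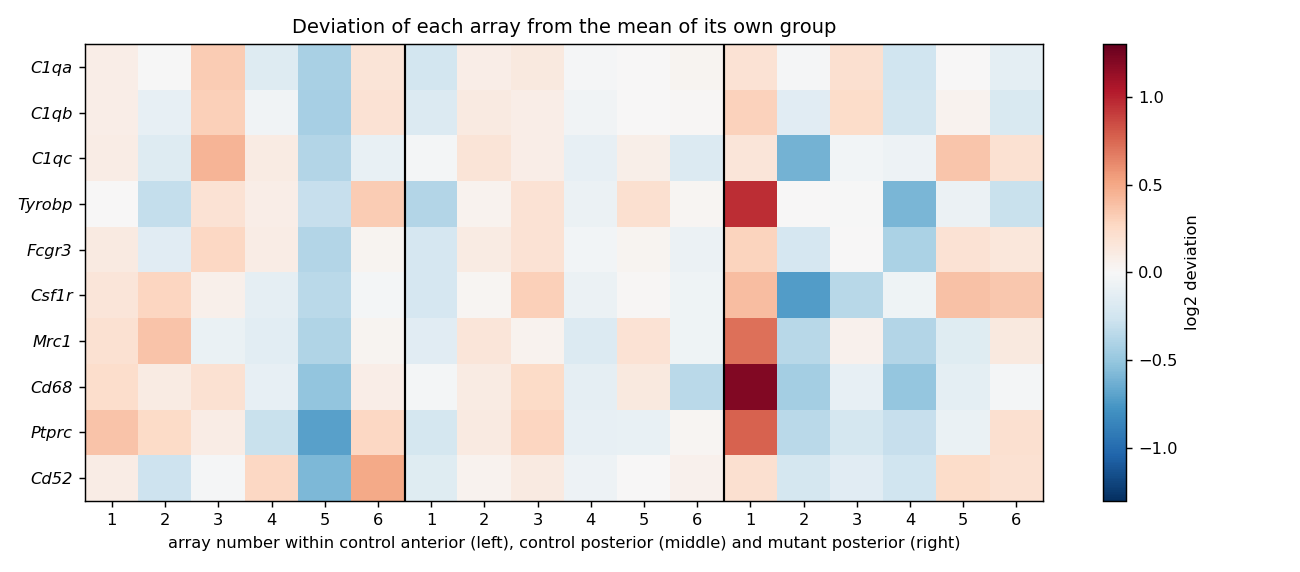
Deviation of each of the 10 genes from its group mean (log2) in each of the 18 arrays. Mutant posterior array 1 has all 10 genes above 0 with a mean of 0.52, and control anterior array 5 has all 10 below 0 with a mean of -0.45.

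The genes whose deviations were most like the mean of the 10 genes over the 18 arrays were Fcer1g (r = 0.961), Pf4 (0.926), Cd48 (0.911), Stab1 (0.908), F13a1 (0.889) and Plekhf1 (0.888). Without the 2 extreme arrays, mutant 1 and control anterior 5, r was 0.741 for Plekhf1 and 0.811 (Cd48) to 0.923 (Fcer1g) for the others. Fcer1g, which encodes the signalling chain shared by several Fc receptors, had a genotype difference of 0.02 (adjusted p = 0.956). Most like the mean of the 3 C1q genes were Aif1 (0.888), Ly86 (0.857), Gsdmd (0.855), Fcer1g (0.845), Fcgr1 (0.836) and Rhag (0.804). Without control anterior arrays 5 and 3, the extremes of that pattern, r ran from 0.699 (Rhag) to 0.879 (Ly86). Ly86, the gene of a partner of the receptor RP105, was higher in posterior controls by 0.57 (adjusted p = 0.0209) and lower in mutants, with a difference of -0.46 (adjusted p = 0.0285), the directions in which C1qb was called. Of the others in that group, Fcgr1 was called lower in mutants and Rhag higher (0.28, adjusted p = 0.0257). Rhag averaged 3.21, below the median probe set level of 5.79, where signal may be background. Most like Cd52 were Napsa (0.877), Zbp1 (0.832), Fcgr1 (0.820), Rcvrn (0.816), C1qtnf7 (0.794) and S1pr2 (0.758). Rcvrn, with a mean of 3.28, and Zbp1, with 5.48, also lay below the median probe set level. Without control anterior arrays 5 and 6, the 2 farthest from the median of the Cd52 deviations, r was 0.502 for C1qtnf7 and 0.505 for S1pr2. Of these 6 genes, Napsa and Fcgr1 were called lower in mutants, like Cd52 (Napsa -0.38, adjusted p = 0.0264), and C1qtnf7 was called higher (0.52, adjusted p = 0.00476).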

How the data were processed

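RNA from 18 palate samples was measured on 1-colour Affymetrix arrays. The authors made the deposited log2 values with RMA (version not stated), per the submitters' processing notes. RMA is built to equalise the distributions of the arrays and can hide a shift common to most genes. In the deposited values mutant arrays 1 to 3 still had higher mean levels than all other arrays. No scanner file or detection call was used, so low levels may be background, and the number of arrays limits the precision.

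Of 45037 non-control probe sets, 34945 had 1 symbol in the platform annotation, 932 had several and 9160 none; control probe sets (64) were left out. Entrez numbers of 18032 of the 18193 genes matched a RefSeq table, and no symbol changed. Groups and replicate numbers came from the sample titles. Differences were fitted with limma 3.58.1 in R 4.3.3 (lmFit and eBayes, 1 fit of 3 groups, 15 residual degrees of freedom, 2-sided), with p adjusted by the Benjamini-Hochberg method over all genes and called under 0.05. The fit was also run on simulated data with independent noise and the same SD in every group. Those data lack the unequal spread of the real groups and the sets of arrays, so they do not check the p-values given here. Figures used matplotlib 3.10.9 in Python 3.11.15.

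The 10 genes and the other 14 gene lists (188 unique genes with the 10, of which 18 were not measured) were chosen with earlier results of these data known. Named genes were the 10, up to 4 called genes of smallest p per list, comparison and direction (up to 2 where none was called), and the 6 most alike for each of 3 patterns. Named beyond that rule, after their values were seen, were Cx3cr1, Cybb, Csf1, Il34, Tgfbr2, Zfp593, Pnrc2 and Eloa. Not every gene the rule takes for the lists of other cells is printed.

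Equal replicate numbers were checked for pairing. Across genes, the deviations of same-numbered anterior and posterior controls had r of 0.111 to 0.430, over 0.1 in each of 6 pairs. The array's own number gave the best match in 4 of the 6 pairs, but not in pairs 1 and 2 (r = 0.111 and 0.134). Control arrays of both regions also divided by replicate number in hybridisation and labelling controls. The part of that division in r was not tested. The main fit took no arrays as pairs. Replicate number served as a block only in an alternative fit, which also joined mutants to same-numbered controls. A pairing of controls would come from the data, not the labels, and r over 0.1 does not establish it. Between mutant and control posterior arrays 2 of 6 pairs exceeded 0.1. Alternatives were other probe set choices, filters, scalings, variance models, sample subsets, blocks, a stricter threshold and leaving out each array.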

Additional observations from a re-analysis of the deposited data

Results flagged for a closer look

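Of 45 sets of 6 arrays (15 probe sets in 3 groups), 3 had an extreme array farther from its nearest neighbour than Dixon's 95% critical value allows, and chance flags about 1 in 20. C1qa in control posterior array 1 was the lowest of its group at 9.16, with the next array at 9.39. The Csf1r probe set second by brightness was highest in control posterior array 3 at 8.48, with the next at 8.10. Cd68 in mutant posterior array 1 was the highest of its group at 8.74, with the next at 7.52.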

How the results depend on the processing

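The mutant comparison called 3 of the 10 genes, and 2 to 4 when 1 array was left out. Within replicates 1 to 3 it called 1, Cd52, where 1745 of all genes were called. Cd52 was called in 31 of 31 alternatives and C1qb in 30, while Csf1r lost its call in 21, with adjusted p up to 0.572. With the 4 array sets as a random block, limma gave an adjusted p of 0.0259 for C1qb, 0.00575 for Cd52 and 0.216 for Csf1r. The region comparison called 2, and 2 to 4 when 1 array was left out. It called 4 in a fit of the compared groups alone, 4 with array weights, 4 with the sets as a random block, 0 within replicates 1 to 3 (2 at an unadjusted limma p under 0.05) and 1 within replicates 4 to 6. Mutant posterior against control anterior called 6, and 2 within replicates 1 to 3, where 3971 of all genes were called. Leaving out 1 array gave 6 to 7. With the replicate number as a block, the 3 comparisons called 2, 2 and 6; it changed no region call.

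In 14 cases a value changed sign, none of them called. For genotype these were C1qa (-0.023 within replicates 4 to 6), C1qc (-0.13 within replicates 1 to 3), Tyrobp (-0.22 within replicates 4 to 6, -0.0074 with array weights, -0.039 without mutant array 1, and up to 0.27 without another) and Fcgr3. Fcgr3 gave 0.0097 with array weights and -0.064 to 0.076 when 1 array was left out, positive without control posterior 2, 3 or 5 or mutant 2 or 4. For region these were Cd52 (-0.022 without control anterior 5, up to 0.19 without another array) and Ptprc (-0.061 within replicates 1 to 3, -0.020 without control anterior 5, up to 0.20 without another). The causes were not tested. Over all genes, genotype calls moved from 2449 to 588 with the sets as a random block and to 1572 in the compared groups alone, and leaving out 1 array gave 1512 to 2735. Testing each probe set called 4835 of them, and adjusted p under 0.01 left 905 genes. Region calls went from 695 to 2151 (compared groups), 3356 (array weights), 1322 (random block), 148 and 220 (replicates 1 to 3 and 4 to 6), 251 (adjusted p under 0.01) and 389 to 1213 when 1 array was left out. Mutant posterior against control anterior went from 4942 to 3178 (compared groups), 2064 (random block), 2494 (adjusted p under 0.01) and 10140 probe sets. Centring arrays on their median turned 1407 higher and 1042 lower into 889 and 1423.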

Other observations

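C1qb, C1qc and C1qa lie next to each other in that order on chromosome 4, and Cd52 is on the same chromosome. The stretch from Cd52 to C1qa was looked at after the values were seen. It holds 57 measured genes, of which 11 (19.3%) were called between genotypes, 3 higher and 8 lower, beside 13.7% of the 1095 measured genes of the chromosome. Its ends were set by Cd52 and C1qa, so the called genes C1qb and Cd52 enter that share by choice. The median difference of the 57 genes was -0.008. Among the called were Zfp593 (-1.35, limma adjusted p = 6.88e-07), Pnrc2 (-2.29) and Eloa (0.85, adjusted p = 1.45e-06).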
